A study of Mus musculus with 8 samples.

Results

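Macrophage lineage transcription factors are the DNA-binding proteins that set and keep macrophage identity, and 10 of them were followed by gene symbol: Spi1, Runx1, Cebpa, Cebpb, Irf4, Irf5, Zeb2, Klf2, Klf4 and Bhlhe40. All 10 were found among the 15867 genes of the deposited table, and all 10 passed the filter on low values. RNA came from F4/80-positive macrophages of adipose tissue of obese mice fed a high-fat diet for 20 weeks, with 4 control and 4 knockout libraries. Both groups carried loxP-flanked alleles of Mirc11 and Mirc22 (Mirc11fl/fl Mirc22fl/fl), the microRNA clusters that make miR-23, miR-27 and miR-24. Controls were Lyz2+/+. Knockout mice were Lyz2Cre/Cre, so Cre recombinase was expressed from both alleles of the lysozyme M gene, in myeloid cells, and the clusters were deleted there. No group carried Cre with intact clusters, so effects of the clusters, of Cre and of Lyz2 loss cannot be told apart. The labels call the samples biological replicates without tying each to 1 animal, and the p-values cover only the spread among these libraries.

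PU.1, the protein of Spi1, binds enhancers throughout the myeloid genome and opens them for other factors. RUNX1 helps to switch on Spi1 during blood cell development, and C/EBP proteins bind beside PU.1 at many macrophage enhancers. Interferon regulatory factors, zinc-finger factors of the KLF and ZEB families and the E-box repressor BHLHE40 then tune inflammatory, tissue-resident and proliferative states. Several of these factors are also used outside macrophages: Cebpa and Cebpb in adipocytes, Klf2 and Klf4 in endothelium, and Irf4 in dendritic cells and lymphocytes.

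The deleted microRNAs pair with messenger RNAs through their seed, bases 2 to 8, and the mature strands are shown first because their seeds define the sites searched for in the 10 genes. They are printed 5′ to 3′ from RefSeq (GRCm38.p6) with the seed in capitals, and 5 of the 6 loci of the 2 clusters were matched there. Both miR-27 strands share 1 seed, and both miR-24 loci give the same strand.
mmu-miR-23a-3p: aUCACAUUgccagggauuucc
mmu-miR-27a-3p: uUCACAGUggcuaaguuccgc
mmu-miR-27b-3p: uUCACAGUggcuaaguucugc
mmu-miR-24-3p: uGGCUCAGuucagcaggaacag

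Of the 10 factors 3, Irf4, Runx1 and Cebpa, had a seed match in their longest annotated 3′ untranslated region (GENCODE M21, mm10). The share of all genes with a match to any of the 3 seeds was not computed. Single 7-base matches were present in 16.8% (miR-23), 17.9% (miR-27) and 19.2% (miR-24) of genes. The 8-base miR-27 site ACTGTGAA, which adds an A to the seed match, was present once each in Irf4 and Runx1, and in 6.42% of the 14788 measured genes with such a region. The 7-base miR-23 match AATGTGA was also present once each in Irf4 and Runx1 (16.8% of genes), without the added A. Cebpa held 2 copies of the 7-base miR-24 match CTGAGCC (19.2% of genes). The sites are printed with the match in capitals, since these are the factors whose messenger RNA carries letters complementary to the deleted microRNAs.
Irf4, miR-27 site, chr13:30763864-30763893, plus strand: cctggcttataACTGTGAAacttgatcagt
Irf4, miR-23 site, chr13:30766142-30766170, plus strand: cagacaggctgAATGTGAgccccagcagc
Runx1, miR-27 site, chr16:92605538-92605567, minus strand: cccggagggaaACTGTGAAtgcttctgatt
Runx1, miR-23 site, chr16:92604561-92604589, minus strand: ccaaaccactgAATGTGAtttttaaattg
Cebpa, first miR-24 site, chr7:35120401-35120429, plus strand: gggtggaacagCTGAGCCgtgaactggac
Cebpa, second miR-24 site, chr7:35120652-35120680, plus strand: cctcccttcctCTGAGCCggactcggtgc
The 3′ untranslated regions of Irf4 (3309 bases) and Runx1 (4189 bases) were longer than the median of 1182 bases over all genes, and that of Cebpa measured 1555 bases. Zeb2 has the longest of the 10, at 4941 bases, and held no match to any of the 3 seeds. A match is a description of letters, and binding was not measured.

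Differences are given on the log2(normalized count + 1) scale as knockout minus control, estimated with limma on 15862 genes with Benjamini-Hochberg adjustment, and values are mean ± SD with n = 4 per group. Lyz2 was nearly absent from the knockout libraries, with at most 273 normalized counts against at least 156727 in controls, so all 8 libraries matched their genotype labels there. Recovered totals ran from 31789395 to 46621080 reads per library. All 10 macrophage markers checked, among them Csf1r and Itgam, were detected in every library, and their summed level lay between 247269 and 315789 in controls and between 196407 and 209152 in knockouts. The summed level of endothelial and mural markers lay between 87580 and 151138 in controls and between 140941 and 193599 in knockouts. In such bulk samples, fewer cells of a type and less RNA per cell cannot be told apart.

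Of the 10 factors 1 passed the threshold, Irf5, which fell, and the other 9 did not, while 3.61% of all genes tested passed in either direction, 2.38% as lower and 1.24% as higher. Before adjustment 6 factors had a p under 0.05 as lower and 1 as higher, where 21.2% of all genes had such a p, 10.4% as lower and 10.8% as higher. The knockout values lay wholly below the control values for 4 factors, Spi1, Cebpa, Irf5 and Zeb2, and wholly above them for 0, against 8.21% and 5.52% of all genes (13.7% in either direction). The median difference over the 10 was -0.23, beside 0.00 over all genes. The authors' deposited table lists 3 of the 10 at an adjusted p under 0.05, Irf5, Cebpa and Spi1, all lower in knockout. In DESeq2 on the recovered reads the same 3 passed as lower, beside 10.9% of all genes with an adjusted p (6.23% lower and 4.66% higher). In edgeR's quasi-likelihood test 1 factor, Irf5, passed as lower, beside 3.51% of all genes (2.31% lower).

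**Figure D1:**
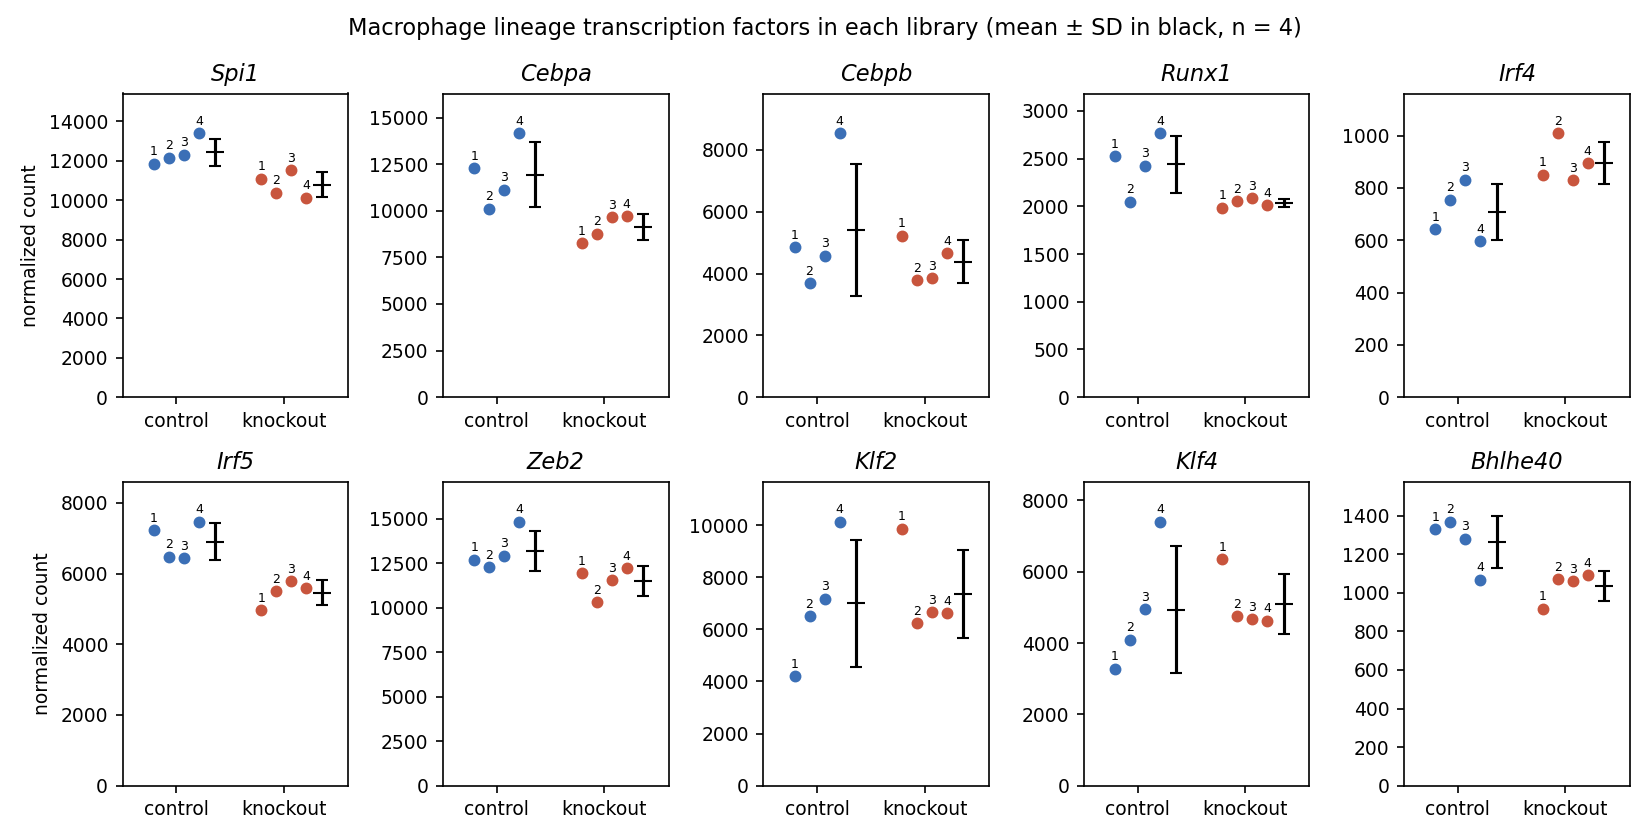
Normalized count (vertical axis, from 0) of each factor in the 4 control (blue) and 4 knockout (red) libraries, numbered by replicate, with the mean ± SD in black. The groups are separate for Spi1, Cebpa, Irf5 and Zeb2, and control replicate 4 and knockout replicate 1 stand high for Klf2 and Klf4.

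Spi1, which lies on chromosome 2 (91082390 to 91115756, plus strand, mm10), encodes the pioneer factor PU.1. Its normalized counts, in replicate order from 1 to 4 here and for the factors that follow, were 11852, 12163, 12321 and 13408 in controls and 11095, 10383, 11516 and 10133 in knockouts. Every knockout library lay below every control library, by a narrow margin between control replicate 1 and knockout replicate 3. The difference was -0.21 (SE 0.06, 95% interval -0.35 to -0.07), with an adjusted p of 0.107 in limma. In the authors' deposited table the adjusted p of Spi1 was 0.0236.

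Runx1 (chromosome 16, 92601466 to 92826149, minus strand) encodes the DNA-binding subunit of core-binding factor. Control values were 2526, 2047, 2427 and 2767, and knockout values were 1985, 2054, 2087 and 2015. The knockout libraries were tightly grouped (2035 ± 44.6, against 2442 ± 299 in control), and control replicate 2 lay among them. The difference was -0.25 (SE 0.08, limma adjusted p = 0.134). Without that library it was -0.34 and passed (limma adjusted p = 0.0353). Runx1 carries the 8-base miR-27 site printed above. Relative to Runx1 in the same library, Spi1 had a mean log2 ratio of 2.35 ± 0.15 in control and 2.40 ± 0.08 in knockout libraries (two-sided exact permutation p = 0.629, adjusted p = 0.838 over the 4 ratios compared).

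Cebpa (chromosome 7, 35119293 to 35121928, plus strand) encodes C/EBPα, the factor of granulocyte and monocyte commitment and of fat cell differentiation. It measured 12285, 10118, 11135 and 14164 in control and 8272, 8777, 9670 and 9692 in knockout libraries. The groups did not overlap, with control replicate 4 highest. The difference of -0.38 (SE 0.10, 95% interval -0.62 to -0.15) was the lowest fitted value among the 10 factors, with a limma adjusted p of 0.0831. Without control replicate 2 it passed (limma adjusted p = 0.0492), and in the authors' deposited table its adjusted p was 0.00940.

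Cebpb (chromosome 2, 167688915 to 167690418, plus strand) encodes C/EBPβ, a factor induced by inflammatory and stress signals. Control values of 4848, 3695 and 4573 were joined by 8541 in control replicate 4, and knockout values were 5224, 3788, 3849 and 4667. The knockout values all lay within the control range. The difference was -0.24 (SE 0.23, 95% interval -0.77 to 0.28, limma adjusted p = 0.591), and without control replicate 4 it was -0.00. The log2 ratio of Cebpa to Cebpb was 1.20 ± 0.32 in control and 1.06 ± 0.29 in knockout libraries (two-sided exact permutation p = 0.486, adjusted p = 0.838).

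Irf5 (chromosome 6, 29526625 to 29541871, plus strand) encodes a factor that acts downstream of Toll-like receptors and drives inflammatory cytokine genes. It measured 7222, 6482, 6438 and 7473 in control libraries and 4963, 5512, 5782 and 5588 in knockout libraries. Every knockout value lay below every control value. Irf5 fell from 6904 ± 523 to 5461 ± 351 (log2 difference -0.34, SE 0.07, 95% interval -0.50 to -0.18, limma adjusted p = 0.0372), a change of -20.9%. Its adjusted p was 0.0422 in edgeR and 0.000588 in the authors' deposited table. When single libraries were omitted, the limma call remained only without control replicate 2, and the adjusted p ran from 0.0479 to 0.0901 over 8 such fits. It was 0.0507 with each library scaled to the same total, 0.0569 with quantile normalization and 0.0764 without limma's trend. Tnpo3 overlaps Irf5 on the opposite strand and measured 2879 in control and 2746 in knockout libraries, and the use of strand in counting was not given in the sources used here.

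Irf4 (chromosome 13, 30749226 to 30766976, plus strand) encodes the factor needed for macrophage programs driven by interleukin-4. It measured 643, 755, 832 and 597 in control and 851, 1009.9, 829 and 894 in knockout libraries. Knockout replicate 3 (829) lay just below control replicate 3 (832), while the other knockout libraries were above all controls. The difference was 0.35 (SE 0.11, 95% interval 0.09 to 0.61, limma adjusted p = 0.127), the highest fitted value among the 10. Irf4 carries the 8-base miR-27 site printed above. Markers of dendritic cells, which also use Irf4, summed to between 1195 and 1971 in controls and between 2262 and 2592 in knockouts, and 8 of 8 had a higher fitted value in knockout. Of these markers 0 passed in limma. Zbtb46, which marks classical dendritic cells and was the most abundant of them, measured 899 ± 233 and 1386 ± 253 (0.64, SE 0.19, limma adjusted p = 0.107). The summed level rested largely on Zbtb46. Endothelial and mural markers had a median of 0.51, and the part of those cells in the Zbtb46 value was not tested. Levels were much lower for Flt3 (40.2 ± 11.8 and 52.9 ± 9.2), Xcr1 (55.0 ± 25.3 and 67.3 ± 6.86) and Clec9a (101 ± 92.1 and 86.0 ± 16.8). The part of dendritic cells in the Irf4 value was not tested.

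The log2 ratio of Irf4 to Irf5 in the same library, which does not depend on library scaling, lay between -3.64 and -2.95 in controls and between -2.80 and -2.45 in knockouts. These groups did not overlap. The shift was 0.69 (two-sided exact permutation p = 0.0286, the smallest that 4 against 4 libraries can give; adjusted p = 0.114 over 4 ratios).

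Zeb2 (chromosome 2, 44983632 to 45117395, minus strand) encodes a zinc-finger repressor that keeps tissue macrophage identity. Control values were 12708, 12266, 12931 and 14845, and knockout values were 11928, 10300.1, 11570.1 and 12236. The groups just failed to overlap, at 12266 in control replicate 2 and 12236 in knockout replicate 4. The difference was -0.20 (SE 0.08, limma adjusted p = 0.198).

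Klf2 (chromosome 8, 72319033 to 72321656, plus strand) and Klf4 (chromosome 4, 55527143 to 55532466, minus strand) encode related zinc-finger factors that restrain inflammatory genes in myeloid cells and endothelium. Klf2 measured 4189, 6492, 7170.1 and 10132 in control and 9855, 6242, 6646 and 6615 in knockout libraries. Klf4 measured 3285, 4092, 4952 and 7407 in control and 6346, 4752, 4663 and 4628 in knockout libraries. In both genes control replicate 4 was highest, knockout replicate 1 came second, and control replicate 1 was lowest. The differences were 0.11 for Klf2 (SE 0.25, 95% interval -0.45 to 0.68) and 0.10 for Klf4 (SE 0.23, 95% interval -0.41 to 0.61), with limma adjusted p of 0.841 and 0.844. These intervals leave room for changes in either direction. The log2 ratio of Klf2 to Klf4 was 0.50 ± 0.13 in control and 0.51 ± 0.10 in knockout libraries (two-sided exact permutation p = 0.857, adjusted p = 0.857).

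The libraries with high Klf2 and Klf4 were also high in immediate early and stress genes, a list of 13 drawn up after the values were seen. Control replicate 4 was the highest control in 12 of the 13 genes, and knockout replicate 1 was the highest knockout in 11. Fos, a component of AP-1, measured 18258, 21781, 26049 and 41995 in control and 25767, 18368, 19536 and 23554 in knockout libraries. Hspa1b, an inducible heat shock protein, reached 11228 in knockout replicate 1 and 7739 in control replicate 4, with 2691 to 4099 in the other 6 libraries. Of the 13 genes 0 passed in limma, 0 passed in DESeq2 and 1, Atf3, had an unadjusted p under 0.05, with a median of -0.05. The part of this pattern in the Klf2, Klf4 and Cebpb values was not tested.

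**Figure D2:**
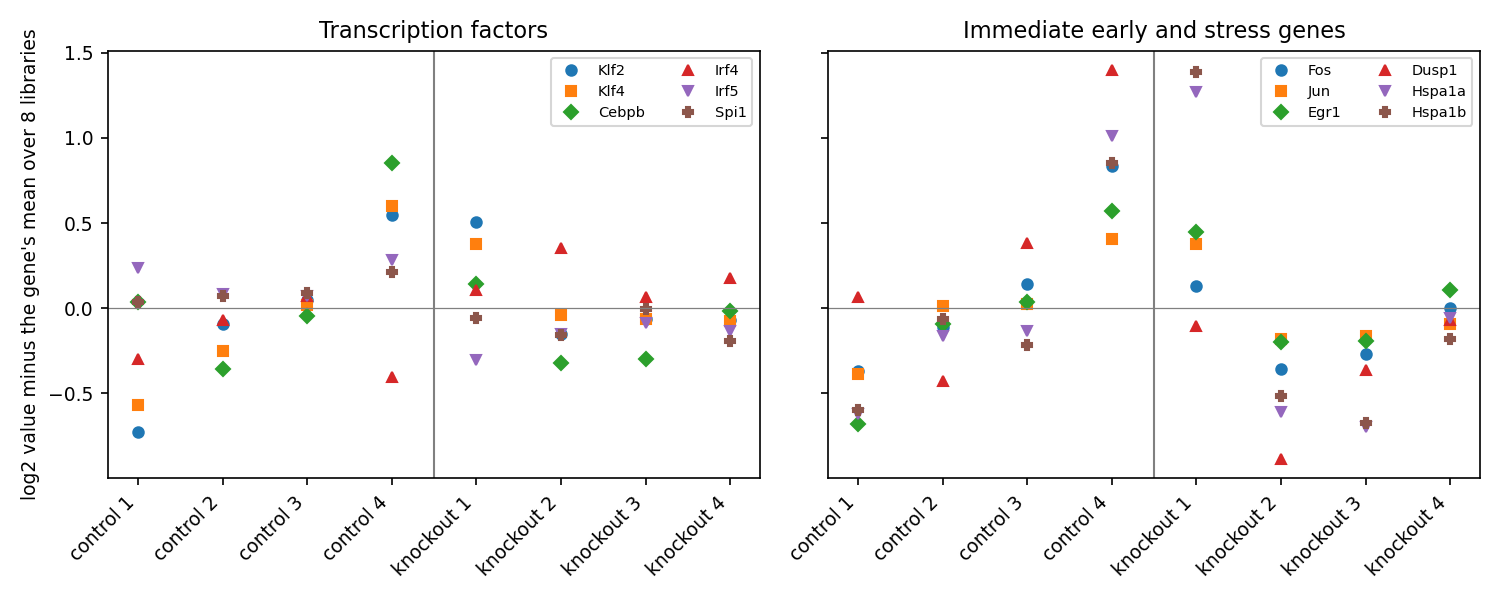
Log2 value of each gene minus its own mean over the 8 libraries (vertical axis) in each library (horizontal axis), for 6 of the factors (left) and 6 immediate early or stress genes (right). Klf2, Klf4, Cebpb, Irf5 and Spi1 peak in control replicate 4, where Fos (41995) and Dusp1 also peak, while Irf4 is at its lowest there (597).

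Bhlhe40 (chromosome 6, 108660629 to 108666925, plus strand) encodes an E-box repressor that represses Maf and supports macrophage proliferation. It measured 1330.2, 1369, 1281 and 1068 in control and 918, 1071, 1061 and 1091 in knockout libraries. Only control replicate 4 reached into the knockout range. The difference was -0.28 (SE 0.09, limma adjusted p = 0.127), and without that library it was -0.36 (limma adjusted p = 0.0542). Maf itself, which helps to keep mature macrophages out of the cell cycle, measured 14528 ± 2459 and 10817 ± 1771 (-0.43, SE 0.15, limma adjusted p = 0.155).

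Levels of the factors against each other were compared per kilobase of the longest annotated transcript, in normalized counts per kb. Spi1 was highest in all 8 libraries, at 6114 ± 333 in control and 5301 ± 313 in knockout. Cebpa followed at 4541 ± 661 and 3466 ± 266, then Klf2 at 3788 ± 1326 and 3974 ± 913, Cebpb at 3600 ± 1424 and 2913 ± 459, and Irf5 at 3081 ± 233 and 2437 ± 157. Klf4 (1629 ± 589 and 1683 ± 275) and Zeb2 (1445 ± 125 and 1261 ± 93.2) came next. Runx1 (417 ± 51.1 and 347 ± 7.61), Bhlhe40 (405 ± 43.1 and 333 ± 25.3) and Irf4 (148 ± 22.4 and 188 ± 16.9) were lowest. Neighbours in this order overlapped over the 8 libraries, except that Zeb2 stayed above Runx1 and Bhlhe40 above Irf4. Counted per kb of the union of exons, Spi1 was still highest by mean (4614 in control) but ranked as low as 4 in single libraries, and Cebpa, Klf2 and Cebpb each ranked 1 in some library. On that length Klf4 (1618) stayed above Zeb2 (661) without overlap, and Runx1 (203) moved below Bhlhe40 (268) and overlapped Irf4 (144).

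**Figure D3:**
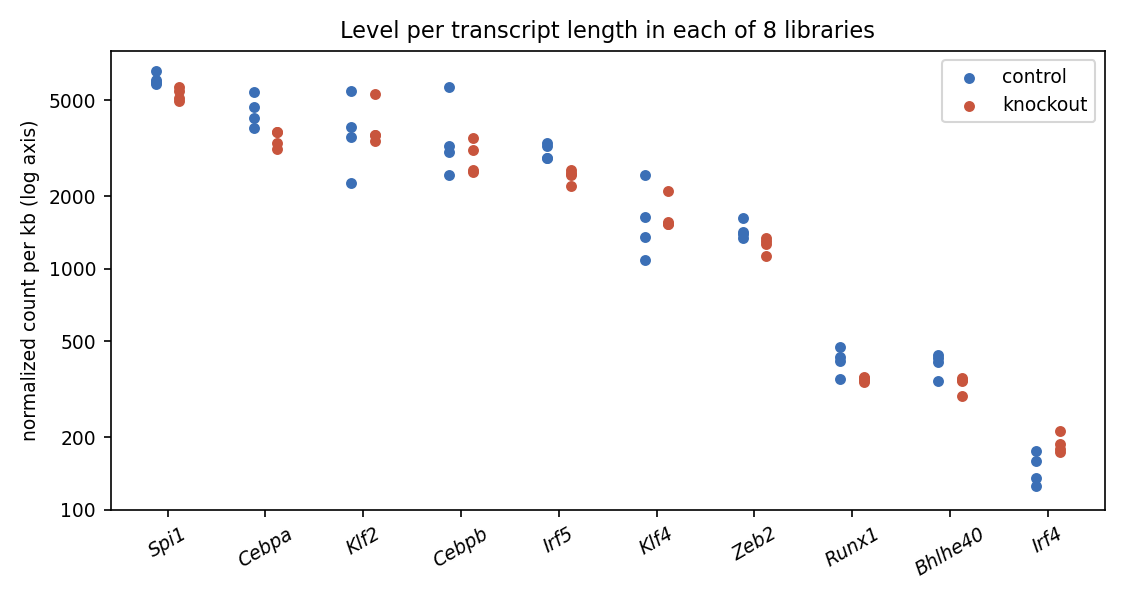
Normalized count per kb of the longest transcript (vertical log axis) of each factor in the 4 control (blue) and 4 knockout (red) libraries, ordered by mean. Spi1 stands at 4982 to 6592 over the 8 libraries and Irf4 at 125 to 212.

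Lists of relatives of the factors and of other macrophage transcription factors gave 2 calls in limma, Runx2 and Bach1, both lower. Of all genes tested 3.61% passed, 2.38% as lower, while 21.2% had an unadjusted p under 0.05 and DESeq2 called 10.9%. Of 6 RUNX relatives and partners Runx2, the master factor of bone-forming cells, fell from 264 ± 12.4 to 182 ± 24.1 (-0.54, SE 0.11, limma adjusted p = 0.0358), and 5 did not pass, with a list median of 0.17. The partner Cbfb measured 3333 ± 247 and 2940 ± 324 (-0.18). Of 22 other macrophage transcription factors Bach1, a repressor of heme-responsive genes, fell from 4778 ± 183 to 3963 ± 272 (-0.27, SE 0.06, limma adjusted p = 0.0447), and 21 did not pass (median -0.02), while 9 of the 22 had an unadjusted p under 0.05 and DESeq2 called 6. With single libraries omitted, Runx2 kept its call in 1 of 8 fits and Bach1 in 0. Of 7 IRF relatives 0 passed in limma, 2 had an unadjusted p under 0.05 and DESeq2 called 1. Irf8, the monocyte and macrophage partner of PU.1, measured 7419 ± 1019 and 5818 ± 435 without overlap (-0.34, SE 0.10, limma adjusted p = 0.0885). That value is close to the one of Irf5, -0.34.

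In the remaining families 0 members passed in limma. Among 16 ETS relatives of Spi1, Ets1 had a difference of 0.38 (SE 0.16) and the most abundant, Etv3, -0.10. Among 3 measured C/EBP relatives Cebpg had -0.25 (SE 0.09), and among 12 KLF relatives Klf3 had 0.18 (SE 0.05) and Klf6 -0.26 (SE 0.11). Among 11 relatives and corepressors of Zeb2, Snai2 had 0.69 (SE 0.24) and Tcf4 0.13 (SE 0.07). Among 10 E-box clock genes with Bhlhe41, 9 had a lower fitted value, with Bhlhe41, the close relative of Bhlhe40, at -0.37 (SE 0.11, limma adjusted p = 0.0984) and Per1 at -0.79 (SE 0.37). Per1 stood at -0.46 without control replicate 4, and without control replicate 2 it passed (-1.17, limma adjusted p = 0.0417). Members with an unadjusted p under 0.05 numbered 1 for ETS, 1 for C/EBP, 4 for KLF, 4 for Zeb2 and 2 for clock genes, and DESeq2 called 0, 0, 1, 0 and 1. The shares over all genes were 21.2% and 10.9%.

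Genes that PU.1 is known to activate had the most calls of the lists linked to the factors. Of 16 measured, 7 fell, 0 rose and 9 did not pass, with a median of -0.38 beside 0.00 over all genes. Of all genes tested 2.38% passed as lower. Cybb, the catalytic subunit of the phagocyte oxidase, fell from 23332 ± 2732 to 14576 ± 907 (-0.67, SE 0.09, limma adjusted p = 0.00727). Itgam (-0.47), Mpeg1 (-0.81), Msr1 (-0.44), Cd68 (-0.41) and Csf1r (-0.45), which encodes the M-CSF receptor, also fell. These 5 belong to the 7 members that the list shares with the macrophage markers. The other 9 PU.1 targets had a median of -0.21, from -0.67 for Cybb to 0.23 for Csf2rb, and 2 of them passed, Cybb among them. A link between Spi1 and these values was not tested. With single libraries omitted, Cybb and Itgam passed in all 8 fits, Mpeg1 in 7, Cd68 and Msr1 in 5 and Csf1r in 1.

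In the lists linked to the other factors 1 gene passed in limma, Arg1, which belongs to both the C/EBP and the Irf4 and Klf4 lists. Arg1, arginase, rose from 165 ± 60.4 to 506 ± 138 (1.63, SE 0.26, limma adjusted p = 0.0146) and passed in 7 of 8 fits with single libraries omitted. The other 7 measured genes of alternative activation had higher fitted values but did not pass, and the list median was 0.45. Of the 8 genes with Arg1, 4 had an unadjusted p under 0.05, DESeq2 called 3, and 3 had all knockout values above all control values. Over all genes 21.2% had such a p, DESeq2 called 10.9%, and 5.52% had all knockout values higher. Mrc1, the mannose receptor and most abundant of them, measured 42327 ± 4407 and 48255 ± 4935 (0.19, SE 0.10). Clec10a, a galactose-binding lectin chosen after its values were seen, measured 11839 ± 2449 and 19104 ± 2869.8 (0.70, SE 0.16, limma adjusted p = 0.0508). Of 8 C/EBP targets Csf3r, the most abundant, measured 1199.6 ± 421 and 1251 ± 289.7 (0.09), and the list median was 0.15.

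Of 6 measured inflammatory genes driven by Irf5, 0 passed in limma or DESeq2 and 1, Nos2, had an unadjusted p under 0.05. Nos2, inducible nitric oxide synthase, measured 396 ± 128 and 640 ± 162 (0.72, SE 0.27, limma adjusted p = 0.177), and 5 of the 6 had a higher fitted value (median 0.33). Il12a, Il12b and Il23a were not analysed here. Of 4 Klf2 targets 0 passed in limma, 3 had an unadjusted p under 0.05 and DESeq2 called 2. Over all genes 21.2% had such a p, and DESeq2 called 10.9%. All 4 targets had a higher fitted value (median 0.41), beside a median of 0.51 for endothelial and mural markers. The part of endothelial and mural cells in these values was not tested. S1pr1, the sphingosine phosphate receptor, measured 6728 ± 549 and 8096 ± 489 (0.27, SE 0.07, limma adjusted p = 0.0781).

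**Figure D4:**
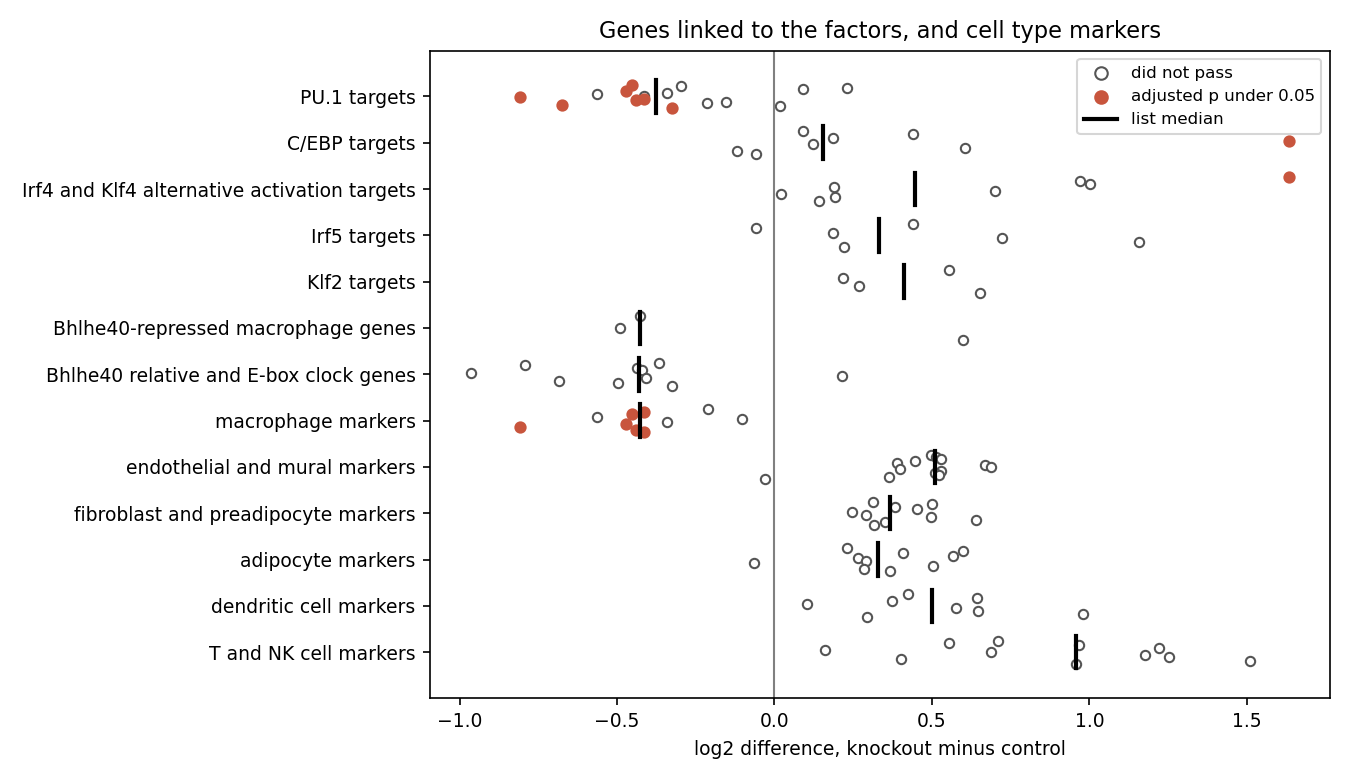
Log2 difference, knockout minus control (horizontal axis), of each gene in lists linked to the factors and in cell type marker lists, with genes past the threshold filled red and list medians as black bars; vertical spread within a list has no meaning. PU.1 targets (median -0.38) and macrophage markers (-0.43) lie to the left, and markers of endothelium (0.51), adipocytes (0.33) and dendritic cells (0.50) to the right.

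Markers of other cell types were set beside the factors. Of 10 macrophage markers 6 fell, 0 rose and all 10 had a lower fitted value (median -0.43), where 2.38% of all genes passed as lower. Outside macrophages, Siglecf, an eosinophil lectin, rose from 54.1 ± 13.9 to 118 ± 19.7 (1.13, SE 0.22, limma adjusted p = 0.0297), though in only 1 of 8 fits with single libraries omitted, and 0 other markers passed in limma. Unadjusted p values under 0.05 were found for 3 adipocyte, 9 endothelial and mural, 4 fibroblast, 6 T and NK, 2 dendritic and 4 mast cell and eosinophil markers, and DESeq2 called 2, 4, 1, 1, 2 and 2 of them, in that order. Over all genes 21.2% had such a p and DESeq2 called 10.9%, and some of these lists lay near those shares. For endothelial and mural cells 12 of 13 markers had a higher fitted value (median 0.51), with Vwf at 0.40 and Pdgfrb at 0.36. For adipocytes 9 of 10 did (median 0.33), with Fabp4 at 0.41 and Lep at 0.57, and for fibroblasts and preadipocytes 10 of 10 (median 0.37), with Col3a1 at 0.45 and Dpp4 at 0.64. Summed adipocyte markers lay between 52097 and 73926 in controls and between 63546 and 101793 in knockouts, and fibroblast markers between 96507 and 165181 and between 130827 and 203789. Most of the adipocyte sum came from Fabp4 (51116 ± 8765 in control and 68722 ± 17267 in knockout). Adipoq measured only 127 ± 30.6 and 146 ± 14.7. T and NK cell (11 of 11), B and plasma cell (7 of 7) and mast cell and eosinophil markers (7 of 7) also had higher fitted values, with summed levels of 454 to 1725, 952 to 5219 and 675 to 2262 over the 8 libraries. Differences were 1.51 for Gzma, 0.16 for Cd4, 0.56 for Ms4a1, 0.74 for Jchain and 0.67 for Kit. Without knockout replicate 1 they were 0.35 for Ms4a1, 0.19 for Jchain and -0.36 for Cd4, and without control replicate 2 Ms4a1 stood at 0.32 and Kit passed (0.83, limma adjusted p = 0.0323), as did Pdgfrb (0.46, limma adjusted p = 0.0479). Neutrophil markers stayed low, at 145 to 207 summed, with Cxcr2 at 0.21. The part of these cells in the values of Cebpa, Cebpb, Klf2, Klf4 and Irf4 was not tested.

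The factors were therefore also set against the macrophage markers. As deposited, the differences of the 10 markers ran from -0.10 for Mertk and -0.21 for Adgre1 to -0.81 for Mpeg1. The size and sign of scaled values therefore depend on which markers are averaged, and other marker sets were not tried. With each library scaled to the mean log2 value of the 10 markers, the median of all genes moved to 0.42, and 63.4% of all genes passed, 63.0% as higher and 0.435% as lower. On that scale the difference was 0.22 for Spi1, 0.04 for Cebpa, 0.18 for Cebpb, 0.17 for Runx1, 0.08 for Irf5, 0.23 for Zeb2 and 0.14 for Bhlhe40, each turned in sign, with limma adjusted p of 0.0585 or more. Irf4 (0.77, SE 0.17, limma adjusted p = 0.00878) and Klf4 (0.52, SE 0.20, limma adjusted p = 0.0436) passed as higher, and Klf2 (0.53, SE 0.24, limma adjusted p = 0.0684) did not pass. Relative to the shifted median, Irf5 stood at -0.34, Cebpa at -0.38, Spi1 at -0.21 and Irf4 at 0.35. This scaling moves every gene of a library by the same amount, so places relative to the median gene are the same as on the deposited scale.

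**Figure D5:**
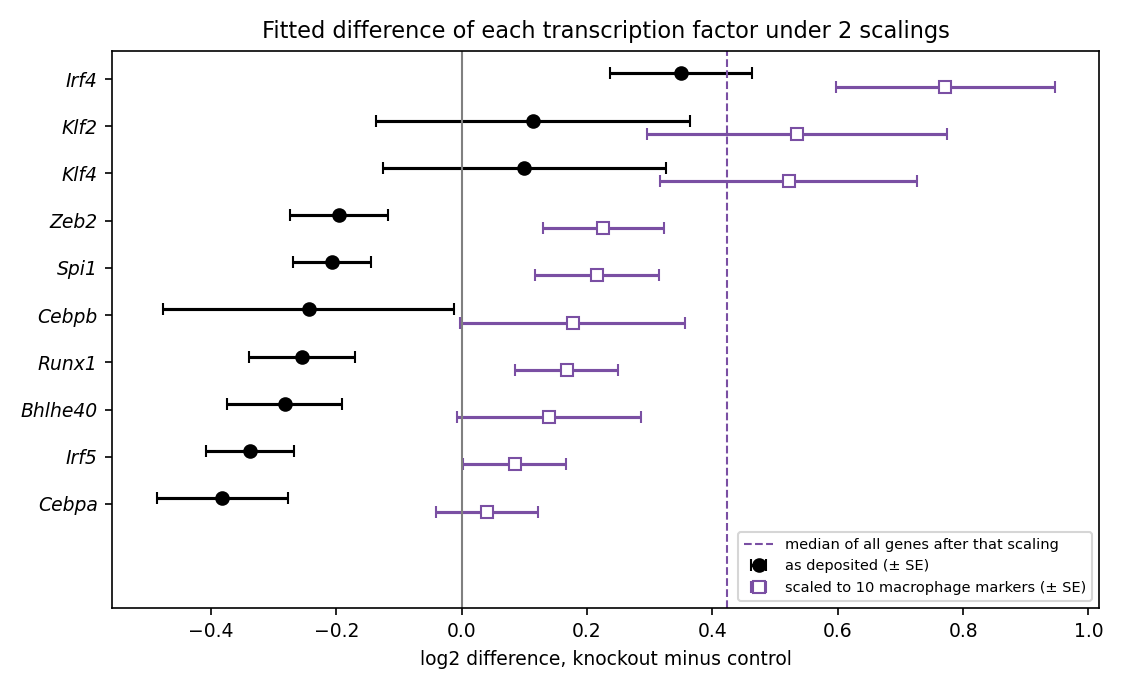
Fitted log2 difference, knockout minus control (horizontal axis), of each factor as deposited (black circles, ± SE) and after scaling to 10 macrophage markers (open squares, ± SE); the dashed line is the median of all genes after that scaling, 0.42. As deposited, 7 of the 10 factors lie left of 0, and after scaling all 10 lie right of 0, with every gene moved by the same amount.

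Genes whose profile over the 8 libraries was most like that of Irf5 were Mapre2, Ddi2 and Dock10, by the root mean square difference of centred log2 values among 11909 named genes with a mean of at least 100. That difference was 0.03 for Mapre2, a microtubule end-binding protein, which fell from 5493 ± 469.8 to 4258 ± 199 (-0.36, SE 0.07, limma adjusted p = 0.0271). It was 0.04 for Ddi2 and for Dock10, whose differences of -0.34 (SE 0.08) and -0.32 (SE 0.08) had limma adjusted p of 0.0540 and 0.0672. With single libraries omitted, Mapre2 passed in 2 of 8 fits, and Ddi2 passed without control replicate 2 (limma adjusted p = 0.0458). These genes were chosen over all 8 libraries, control and knockout together, so a group difference close to that of Irf5 was part of the choice. Their differences, p-values and calls therefore describe the chosen genes and add no separate evidence of a fall.

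Promoter windows from 250 bases before to 50 after each start (RefSeq, GRCm38.p6) were matched for 8 of the 10 factors, all but Spi1 and Bhlhe40, and searched on both strands. Some genes have several windows, and the 8 factors have 12, so a gene was counted when any of its windows held the motif, over 26994 genes. The PU.1 motif GAGGAAGT was found in 0 of the 8 factors and in 3.69% of all genes. The KLF motif CACCCA was found in 6 of the 8, among them Klf2 and Irf5, and in 24.7% of all genes. The RUNX motif TGTGGT was found in 1, Runx1 itself, with 2 matches in 1 window, and in 18.9% of all genes. The E-box CACGTG was found in Klf4 and Runx1 (8.09% of genes) and the C/EBP motif TTGCNNCAA in Zeb2 (2.38%). These windows hold no distal enhancer, where much of the binding of these factors is known to occur.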

How the data were processed

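RNA was sequenced from 4 control and 4 knockout libraries, poly(A)-selected per the labels' protocols, with groups and replicate numbers from the titles. The authors deposited normalized gene counts, a signal with 1 column per library. Tools listed in the submitters' processing notes are FastQC, cutadapt, Salmon and DESeq2, and the build mm10, with no versions or roles. Dividing each library by its value of 1 read gave whole reads (100% within 0.01; in control replicate 4 the step lies near 1 and cannot be told from rounding). The authors' deposited DESeq2 table holds, per the file headers, log2 fold changes, control over knockout (sign turned here), its standard error and statistic (score columns) and p-values.

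The main test was limma 3.58.1 (R 4.3.3) with a trend on log2(value + 1), two-sided, for genes with a mean of at least 10, with a threshold of 0.05 and no covariate. It was tested on simulated data with larger changes than those of the factors and the same dispersion for all genes. How well it finds changes of the factors' size was not examined. Alternatives were pseudocounts, filters, scalings, array weights, no trend, a replicate block, each library left out, edgeR 4.0.16 and DESeq2 1.42.0 on recovered reads. The lowest gene mean was 9.35, and a filter by the authors was not given in the sources used here. Of the gene symbols, 15640 matched GENCODE M21, and 21 lines whose symbols had turned into dates were not named.

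Members and lists were chosen with earlier results of these data known. Named genes were the members, list members past the threshold, each list's smallest p and most abundant gene, and the 3 profiles most like Irf5. Others were chosen after their values were seen, and a few named by the rule are not reported.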

Additional observations from a re-analysis of the deposited data

Results flagged for a closer look

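In groups of 4 libraries, a library was singled out when its distance to the nearest of the others took up most of the whole range on the log2 scale (Dixon's 95% value). This happened in 6 of the 102 groups checked (5.88%), and chance gives about 1 in 20. Among the factors, knockout replicate 1 was singled out for Klf2 (9855, with 6242 to 6646 in the other knockout libraries), for Klf4 (6346, others 4628 to 4752) and for Bhlhe40 (918, others 1061 to 1091). The same library was singled out for Mapre2 (3959.9, others 4342 to 4368). Gzma stood high in knockout replicate 3 (173, others 51.0 to 57.1), and Klf6 in knockout replicate 4 (12059, others 10696 to 10761).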

How the results depend on the processing

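The number of factors past the threshold was 1 as reported. It was 0 with libraries scaled to the same total, with quantile normalization, without the trend and with the replicate block, 2 with scaling to macrophage markers and 3 in DESeq2. Leaving out 1 library gave 0 to 3 factors and, over all genes, 163 to 502 calls against 573. All-gene calls were 931 with array weights, 292 without the trend, 7 with the replicate block, 1557 in DESeq2 and 10061 with scaling to macrophage markers. Under the last scaling 2 factors did not overlap, both higher, in place of the 4 lower. The share of all genes without overlap was not computed on that scale, where 63% of all genes passed as higher. With libraries scaled to the same total, 50.1% of calls were higher, against 34.2%. Equal replicate numbers did not deviate together (correlations -0.20, -0.20, -0.04 and -0.29). No label says whether they mark a shared litter or day. The correlations cannot decide it, since other differences between libraries could hide a shared one. With the replicate block the limma adjusted p of Irf5 was 0.216. Scaling to macrophage markers, chosen with their fall known, turned Spi1 (0.22), Cebpa (0.040), Cebpb (0.18), Runx1 (0.17), Irf5 (0.084), Zeb2 (0.23), Bhlhe40 (0.14), Bach1 (0.15), Bhlhe41 (0.056), Cbfb (0.24), Cd68 (0.0089), Cebpg (0.17), Ddi2 (0.085), Dock10 (0.10), Etv3 (0.32), Irf8 (0.078), Klf6 (0.16) and Mapre2 (0.057). Leaving out 1 library gave -0.11 to 0.31 for Klf2, -0.073 to 0.32 for Klf4, -0.36 to 0.52 for Cd4 and -0.053 to 0.30 for Csf3r. Values under 1 omitted library also differed by over 1.5 times for Etv3 (-0.02), Klf6 (-0.16), Mrc1 (0.12), Nos2 (0.47), Vwf (0.26) and Jchain (1.14). For the ratios it gave 0.57 to 0.80 for Irf4 to Irf5, -0.037 to 0.068 for Klf2 to Klf4, -0.29 to -0.00 for Cebpa to Cebpb and 0.01 to 0.12 for Spi1 to Runx1. Pseudocounts of 0.5 and 5 kept every factor on its side of the threshold. The cause of these changes was not tested.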
